A study of Mus musculus with 8 samples.

Results

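The 9 genes described here belong to the YAP and TEAD arm of the Hippo pathway, measured in mouse pluripotent stem cells: the coactivator gene Yap1, the transcription factor genes Tead1, Tead2 and Tead4, the target genes Ctgf, Cyr61, Ankrd1 and Amotl2, and the kinase gene Lats2. They were taken by gene symbol from the gene tables of 8 RNA sequencing libraries. All 9 are among the 21995 named genes of these tables and among the 11892 that passed a filter on low values. The 8 libraries form 4 groups of 2. The control group holds E14tg2a embryonic stem cells (ESCs, strain 129/Ola, labelled WT) at passages 10 to 12. Dnd1-KD holds ESCs of the same strain, genotype label and passage range with Dnd1 knocked down, by a method the labels do not give. The remaining groups, CDGC1 and CDGC6, are lines derived from early teratoma cells in the testis of newborn Dnd1ter/ter mice (strain 129Sv, with the Oct4deltaPE-GFP transgene), used at passages 15 to 18. All groups grew in medium with serum and LIF. Origin, strain, genotype, transgene and passage differ together between each derived line and the control, so they cannot be told apart, and each derived line is a single line. Whether paired libraries were grown apart is not stated, so p-values here measure only library spread, which may be technical.

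In the Hippo pathway the kinases encoded by Lats1 and Lats2 phosphorylate YAP and its relative TAZ and keep them out of the nucleus. Without that phosphorylation YAP enters the nucleus, binds TEAD proteins on DNA and turns on genes such as Ctgf, Cyr61, Ankrd1 and Amotl2. Lats2 and Amotl2 are themselves known YAP targets that restrain YAP, so part of the target list is also a feedback loop. YAP activity is set largely by phosphorylation and location, which RNA levels do not measure. DND1 is an RNA-binding protein that germ cells need to survive. In human germ cell tumour cells it has been described as shielding LATS2 mRNA from microRNAs.

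TEAD proteins bind a short DNA element whose core reads GGAATG, or CATTCC on the opposite strand. The promoter of Cyr61 is shown because, of the genes with a core here, Cyr61 had the largest log2 difference between groups. It is the 250 bases before the RefSeq start of transcription (RefSeq, GRCm38.p6, minus strand, chr3:145649986-145650235), with the core in capitals.
Cyr61 promoter: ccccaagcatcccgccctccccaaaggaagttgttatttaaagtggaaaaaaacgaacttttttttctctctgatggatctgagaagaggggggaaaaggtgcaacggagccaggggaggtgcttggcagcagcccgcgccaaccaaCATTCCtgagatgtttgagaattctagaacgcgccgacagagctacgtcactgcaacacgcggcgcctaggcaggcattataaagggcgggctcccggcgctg
The first letter of the core lies 103 bases before the start. The other cores found in promoters of these genes are shown as windows of 30 bases, on chr19:36120037-36120066 and chr19:36119950-36119979 (Ankrd1, minus strand), chr9:102717727-102717756 (Amotl2, plus strand) and chr9:8004720-8004749 (Yap1, minus strand).
Ankrd1 core 1: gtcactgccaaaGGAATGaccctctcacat
Ankrd1 core 2: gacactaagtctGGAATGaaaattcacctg
Amotl2 core: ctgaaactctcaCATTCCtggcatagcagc
Yap1 core: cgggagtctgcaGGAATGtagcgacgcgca
A promoter entry was matched for 6 of the 9 genes. Ctgf, Tead1 and Tead4 had no entry, so their promoters were not searched. On both strands, 4 of the 6 hold at least 1 core in the 250 bases, and no match was found in the windows of Tead2 and Lats2. Of all 32851 promoters in the table, 12.6% hold at least 1 core, and 1.02% hold at least 2, as Ankrd1 does. RefSeq starts can lie inside the longer gene spans given below. The windows of Ankrd1, Amotl2 and Lats2 fall within those spans, and that of Tead2 falls partly within. The match is a description of letters and shows no binding.

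For Lats2, the sequence of interest is the 3′ UTR, because of the described link between DND1 and microRNAs on LATS2 mRNA. Shown here are 5 microRNAs of the mouse miR-290 and miR-302 families that share 1 seed (bases 2 to 8, in capitals, RefSeq sequences). A search for mmu-miR-302a-3p gave no sequence, and other members of these families were not looked at.
mmu-miR-291a-3p: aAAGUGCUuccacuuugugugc
mmu-miR-294-3p: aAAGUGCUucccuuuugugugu
mmu-miR-295-3p: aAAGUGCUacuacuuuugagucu
mmu-miR-302b-3p: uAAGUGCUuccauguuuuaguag
mmu-miR-302d-3p: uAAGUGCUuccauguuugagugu
All 5 carry the same seed, whose match in a target is AGCACTT. In the GENCODE vM21 annotation (mm10) the 3′ UTR of Lats2 is 1626 bases long and holds 2 such matches, on the minus strand within chr14:57691075-57691104 and chr14:57690976-57691005, with the match in capitals.
Lats2 site 1: agtatggaaagAGCACTTattttgtggata
Lats2 site 2: ttgtatctgatAGCACTTgtccacagctag
The 3′ UTRs of the other 8 genes hold 0 matches. Of 2869 mouse 3′ UTRs within 20% of that length, 17.7% hold at least 1 match and 1.39% hold at least 2. These microRNAs were not measured here.

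Levels are given in FPKM, fragment counts scaled to transcript length and library size, which can be compared between genes. Each of the 9 genes had 1 entry in each of the 8 libraries, and none of the 72 entries was at 0. The depth implied by the tables ran from about 10700000 to 18000000 fragments per library. Unnamed entries took up 76.8% to 85.6% of all FPKM. Dnd1 itself was listed at 0 in the control and in both derived lines, and in Dnd1-KD it was joined into 1 entry with its neighbour Hars, so these tables do not measure the knockdown. Hprt, which E14tg2a cells are known to lack, stood at 0.359 to 0.642 FPKM in the control and Dnd1-KD and at 121 to 133 FPKM in CDGC1 and CDGC6. Differences were tested with limma on log2(FPKM + 1) over all 11892 genes and are given with their standard error on that scale, which understates the change of low genes. Adjusted p-values are from limma with Benjamini-Hochberg adjustment, and 0.05 is the threshold. Dnd1-KD was tested against CDGC1 and CDGC6 only to order the groups (61.6% and 53.6% of all genes passed). Fold values are ratios of mean FPKM. In bulk RNA, fewer cells that express a gene and less RNA per cell cannot be told apart.

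**Figure D1:**
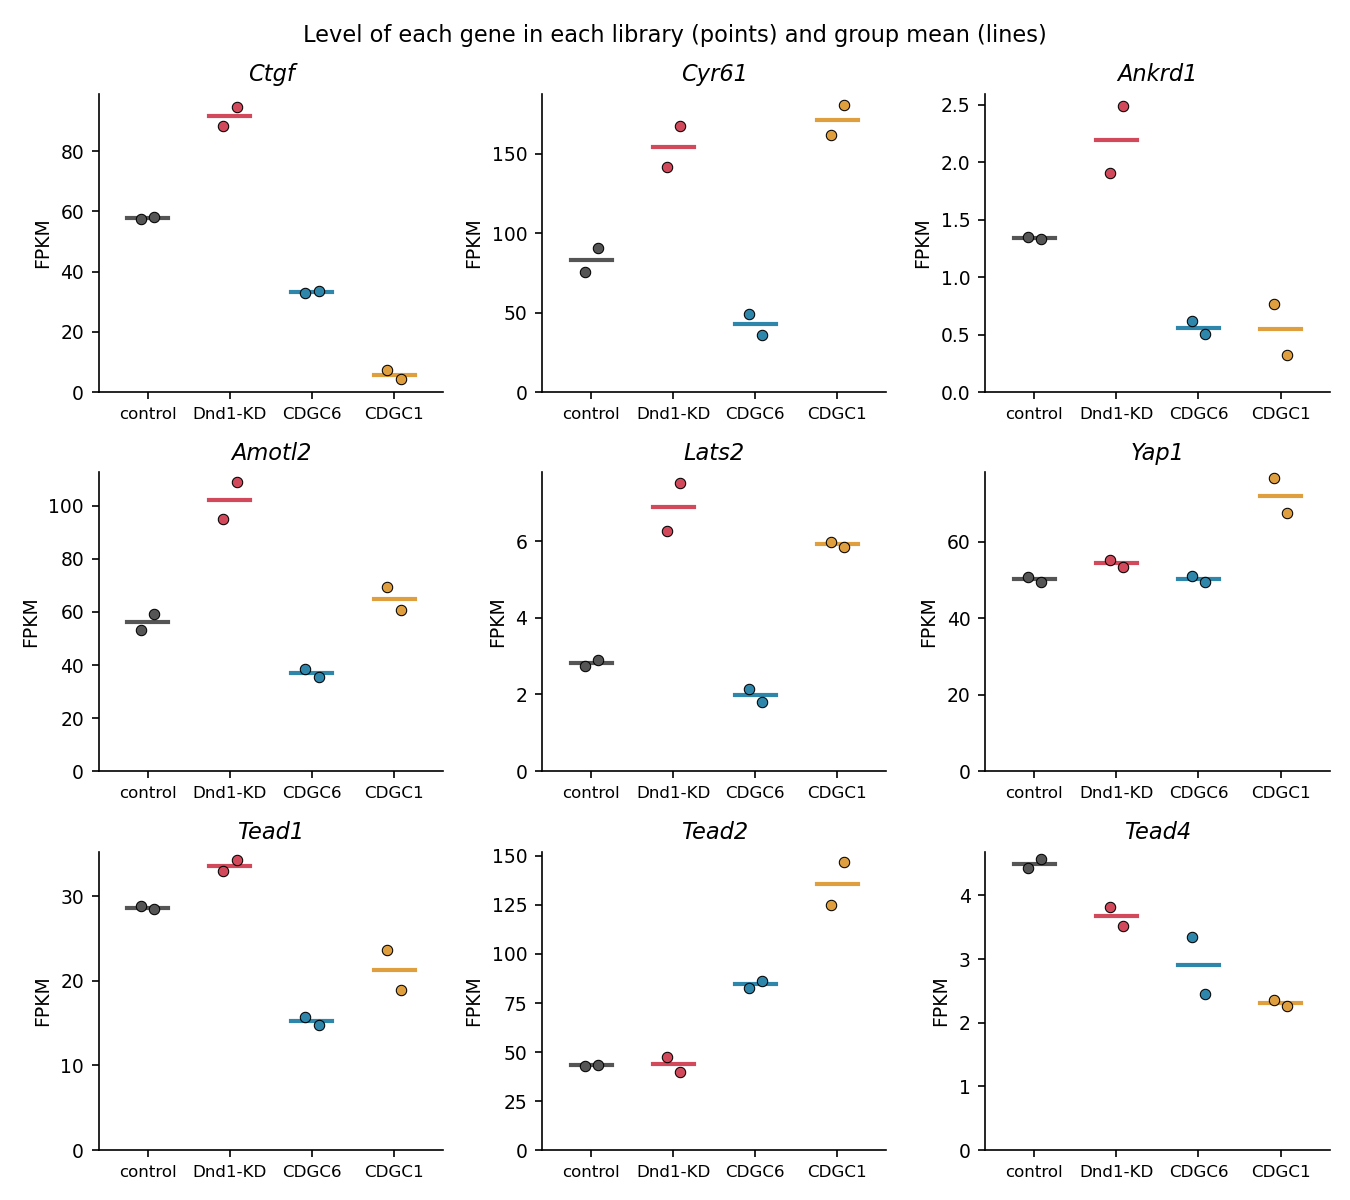
FPKM of each of the 9 genes in the 8 libraries (points, linear axes from 0 with a scale for each gene), grouped as control, Dnd1-KD, CDGC6 and CDGC1, with lines at the group means. Ctgf is lowest in CDGC1 (4.52 and 7.21 FPKM), where Cyr61 is highest (162 and 181 FPKM).

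Ctgf and Cyr61 encode secreted matricellular proteins and are common readouts of YAP. Ctgf (Ccn2, chr10:24595442-24598683 in mm10) measured 57.5 and 58.3 FPKM in the control libraries, 88.5 and 94.7 in Dnd1-KD, 32.9 and 33.5 in CDGC6, and 7.21 and 4.52 in CDGC1. No group overlapped another, and the order ran from Dnd1-KD through the control and CDGC6 down to CDGC1, with each step past the threshold. Ctgf was 9.87-fold lower in CDGC1 than in the control (log2 difference −3.13 ± 0.17, SE, adjusted p = 4.84e-05). It was 1.75-fold lower in CDGC6 (−0.79 ± 0.17, adjusted p = 0.0304). In Dnd1-KD it rose 1.58-fold (0.65 ± 0.17, adjusted p = 0.0307). The CDGC1 difference passed in every setting tried. The Dnd1-KD call was lost with median-ratio scaling (adjusted p = 0.0515), without either CDGC6 library (0.0523 and 0.0522), without the first or second control library (0.126 and 0.112) and without the first or second Dnd1-KD library (0.0820 and 0.139). The CDGC6 call was lost without the first or second CDGC6 library (0.0980 and 0.0989), control library (0.135 and 0.144) or Dnd1-KD library (0.0542 and 0.0541).

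Cyr61 (Ccn1, chr3:145646976-145649981) did not follow Ctgf in CDGC1. It measured 75.5 and 90.6 FPKM in the control, 142 and 168 in Dnd1-KD, 162 and 181 in CDGC1, and 49.5 and 36.3 in CDGC6. The CDGC1 and Dnd1-KD libraries overlapped each other, and both groups lay above the control and CDGC6. Cyr61 rose 2.07-fold in CDGC1 (log2 difference 1.04 ± 0.17, adjusted p = 0.00349) and 1.86-fold in Dnd1-KD (0.89 ± 0.17, adjusted p = 0.0118). In CDGC6 it was 1.94-fold lower than in the control (−0.95 ± 0.17, adjusted p = 0.0175). The Dnd1-KD call was lost without the second Dnd1-KD library (0.0725) or the first control library (0.0746), and the CDGC6 call without the second CDGC6 library (0.0557) or the first or second control library (0.0631 and 0.106). The ratio of Cyr61 to Ctgf put this in 1 number per library: 1.31 and 1.55 in the control, 1.60 and 1.77 in Dnd1-KD, 1.51 and 1.08 in CDGC6, and 22.5 and 40.0 in CDGC1. Both CDGC1 libraries stood apart from the other 6, whose ratios lay between 1.08 and 1.77.

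Ankrd1 (chr19:36111961-36120099), which encodes an ankyrin-repeat nuclear protein and is a YAP target in many cell types, was close to the limit of the filter. It measured 1.35 and 1.34 FPKM in the control, 1.90 and 2.49 in Dnd1-KD, 0.617 and 0.502 in CDGC6, and 0.765 and 0.327 in CDGC1. Both derived lines lay below the control and Dnd1-KD, and the 2 lines overlapped each other. It was 2.46-fold lower in CDGC1 than in the control (log2 difference −0.61 ± 0.16, adjusted p = 0.0202). That call was lost with quantile normalization (0.312), without the second CDGC1 library (0.0647) and without the first or second control library (0.0838 and 0.0807). The differences of Ankrd1 in CDGC6 (−0.59 ± 0.16, adjusted p = 0.0524) and in Dnd1-KD (0.44 ± 0.16, adjusted p = 0.0759) did not pass. Both passed with only the 2 compared groups in the limma fit (adjusted p = 0.0225 in CDGC6 and 0.0401 in Dnd1-KD). In limma with quantile normalization the CDGC6 difference also passed (−0.67, adjusted p = 0.0303). Dnd1-KD was above each derived line (adjusted p = 0.00178 against CDGC1 and 0.00283 against CDGC6).

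Amotl2 (chr9:102716672-102733418) encodes a member of the angiomotin family, which binds YAP and holds it at junctions and in the cytoplasm. It measured 53.1 and 59.4 FPKM in the control, 95.1 and 109 in Dnd1-KD, 69.4 and 60.7 in CDGC1, and 38.6 and 35.6 in CDGC6. Dnd1-KD was the highest group and CDGC6 the lowest, and no groups overlapped. Amotl2 rose 1.81-fold in Dnd1-KD (log2 difference 0.85 ± 0.11, adjusted p = 0.00337) and fell in CDGC6, where it was 1.52-fold lower (−0.59 ± 0.11, adjusted p = 0.0179). The CDGC6 call was lost without the second CDGC6 library (0.0757) or either control library (0.0704 and 0.116). The CDGC1 difference was 0.21 ± 0.11 (adjusted p = 0.162).

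Lats2 (chr14:57689662-57758388) encodes a kinase that phosphorylates YAP, and its 3′ UTR carries the 2 seed matches printed above. It measured 2.74 and 2.90 FPKM in the control, 6.27 and 7.51 in Dnd1-KD, 5.97 and 5.85 in CDGC1, and 2.15 and 1.82 in CDGC6. Dnd1-KD and CDGC1 both lay above the control and CDGC6 with no overlap. Lats2 rose 2.44-fold in Dnd1-KD (log2 difference 1.04 ± 0.11, adjusted p = 0.00222) and 2.10-fold in CDGC1 (0.86 ± 0.11, adjusted p = 0.00132). In CDGC6 the difference was −0.36 ± 0.11 (adjusted p = 0.0729). That difference passed in limma with quantile normalization (−0.43, adjusted p = 0.0462). The deposited interval of the second Dnd1-KD library was wide, from 3.50 to 11.5 FPKM, where that of the first ran from 5.87 to 6.68 FPKM. The Lats2 locus also overlaps the annotated protein-coding gene Gm49361 on the same strand, and the counting could have split reads between them.

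Yap1 (chr9:7931999-8004596) encodes the coactivator itself. It measured 50.8 and 49.4 FPKM in the control, 55.2 and 53.5 in Dnd1-KD, 50.9 and 49.5 in CDGC6, and 76.7 and 67.4 in CDGC1. CDGC1 was the highest group, Dnd1-KD lay just above the control and CDGC6 with no overlap, and the control and CDGC6 overlapped. Yap1 was 1.44-fold higher in CDGC1 than in the control (log2 difference 0.51 ± 0.08, adjusted p = 0.00229). The differences were 0.11 ± 0.08 in Dnd1-KD (adjusted p = 0.291) and 0.00 ± 0.08 in CDGC6 (adjusted p = 0.992).

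The TEAD genes encode the DNA-binding partners of YAP and did not move together. Tead2 (chr7:45215753-45233644) is known as the family member of early embryos and neural precursors. It measured 43.2 and 43.2 FPKM in the control, 47.5 and 39.9 in Dnd1-KD, 82.9 and 86.2 in CDGC6, and 125 and 147 in CDGC1. Both derived lines lay above the control and Dnd1-KD, which overlapped. Tead2 rose 3.15-fold in CDGC1 (log2 difference 1.63 ± 0.11, adjusted p = 9.72e-05) and 1.96-fold in CDGC6 (0.95 ± 0.11, adjusted p = 0.00457). Tead2 overlaps Cd37 on the other strand and the library kit keeps no strand. Cd37 was listed at no more than 2.08 FPKM in any library.

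Tead1 (chr7:112679318-112906807), expressed widely in tissues, went the other way in the derived lines. It measured 28.8 and 28.5 FPKM in the control, 32.9 and 34.3 in Dnd1-KD, 23.6 and 18.9 in CDGC1, and 15.7 and 14.8 in CDGC6. CDGC6 was the lowest group and no groups overlapped. Tead1 was 1.88-fold lower in CDGC6 than in the control (log2 difference −0.87 ± 0.11, adjusted p = 0.00591) and 1.35-fold lower in CDGC1 (−0.42 ± 0.11, adjusted p = 0.0188). The CDGC1 call was lost when the 2 compared groups were fitted alone (0.0591) or without the first or second control library (0.0883 and 0.0804), and the CDGC6 call without the first control library (0.0508).

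Tead4 (chr6:128224288-128300823), which the trophectoderm of the early embryo requires, was the lowest of the 3 TEAD genes. It measured 4.43 and 4.57 FPKM in the control, 3.82 and 3.52 in Dnd1-KD, 3.35 and 2.45 in CDGC6, and 2.36 and 2.26 in CDGC1. The control was highest, and neither derived line overlapped it. Tead4 was 1.95-fold lower in CDGC1 (log2 difference −0.73 ± 0.13, adjusted p = 0.00403) and 1.55-fold lower in CDGC6 (−0.51 ± 0.13, adjusted p = 0.0422). The CDGC6 call was lost with no filter (0.0670), with the compared groups alone (0.0741), without the second CDGC6 library (0.0941), without either control library (0.172 and 0.198) and without either Dnd1-KD library (0.0679 and 0.0680).

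Because FPKM can be added across genes, the makeup of the TEAD pool can be described. Tead1, Tead2 and Tead4 summed to 76.3 ± 0.0428 FPKM in the control (mean ± SD, n = 2), 80.9 ± 4.61 in Dnd1-KD, 102.7 ± 1.09 in CDGC6 and 159 ± 12.2 in CDGC1. Tead2 made up 56.6% ± 0.0978 of that sum in the control, 53.9% ± 3.56 in Dnd1-KD, 82.3% ± 1.42 in CDGC6 and 85.1% ± 3.27 in CDGC1. Tead1 made up 37.5% ± 0.236, 41.6% ± 3.57, 14.8% ± 0.773 and 13.4% ± 3.11 in the same order. The 2 derived lines thus shared a Tead2-rich makeup, though their sums and their target genes differed. Tead3 was left out of the sum because it was listed at 0 in the first Dnd1-KD library, which can be a failed estimate. It measured 7.46 FPKM in the second Dnd1-KD library and 7.72 to 11.4 FPKM in the other 6.

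**Figure D2:**
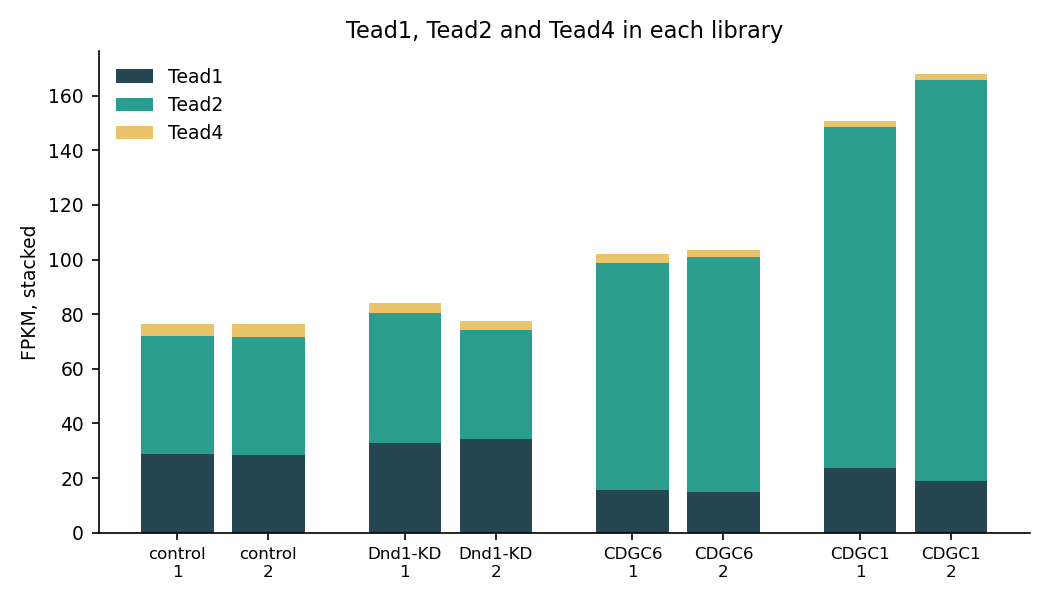
FPKM of Tead1, Tead2 and Tead4, stacked as bars from 0, in each of the 8 libraries. Tead2 goes from 43.2 FPKM in the control to 125 and 147 FPKM in the CDGC1 libraries, while Tead1 and Tead4 are lower in both derived lines than in the control.

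Counted over the 9 genes, the 3 comparisons with the control (which share its 2 libraries) gave different sets. In Dnd1-KD, 4 genes rose (Ctgf, Cyr61, Amotl2 and Lats2) and 0 fell by limma, where 36.2% of all 11892 genes passed (20.7% higher, 15.5% lower), so the count lies near that background. At an unadjusted p under 0.05, 5 were higher and 0 lower. The median log2 difference of the 9 was 0.44, beside 0.02 over all genes. The 4 that rose are known targets of YAP, but Ankrd1, also a target, did not pass, nor did Yap1 and the 3 TEAD genes. With a count near the background, no split between targets and other genes is read from this. Of 15 other YAP target genes tested, 6 rose and 3 fell in Dnd1-KD. Which of the 9 genes passed also depended on the setting. With only the 2 compared groups in the limma fit, Ankrd1 (adjusted p = 0.0401) and Tead1 (0.0286) passed as higher and Tead4 (0.0495) as lower. Ankrd1 also passed with a pseudocount of 5 (0.0437). In CDGC1, 4 rose (Cyr61, Yap1, Tead2 and Lats2) and 4 fell (Ctgf, Ankrd1, Tead1 and Tead4), where 50.5% of all genes passed (23.6% higher, 26.9% lower). The median of the 9 was 0.21 against −0.03 over all. In CDGC6, Tead2 rose and 5 fell (Ctgf, Cyr61, Amotl2, Tead1 and Tead4), where 18.7% of all genes passed (8.48% higher, 10.2% lower). The median was −0.59 against −0.01 over all. The libraries of the 2 groups did not overlap for 8 of the 9 genes in Dnd1-KD (79.6% of all genes), 9 in CDGC1 (78.7%) and 8 in CDGC6 (71.3%). The counts depend on single libraries. In Dnd1-KD, 2 genes passed when the first control or the second Dnd1-KD library was left out. In CDGC6, 1 passed with the first control library left out, and 2 with the second control or the second CDGC6 library left out.

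**Figure D3:**
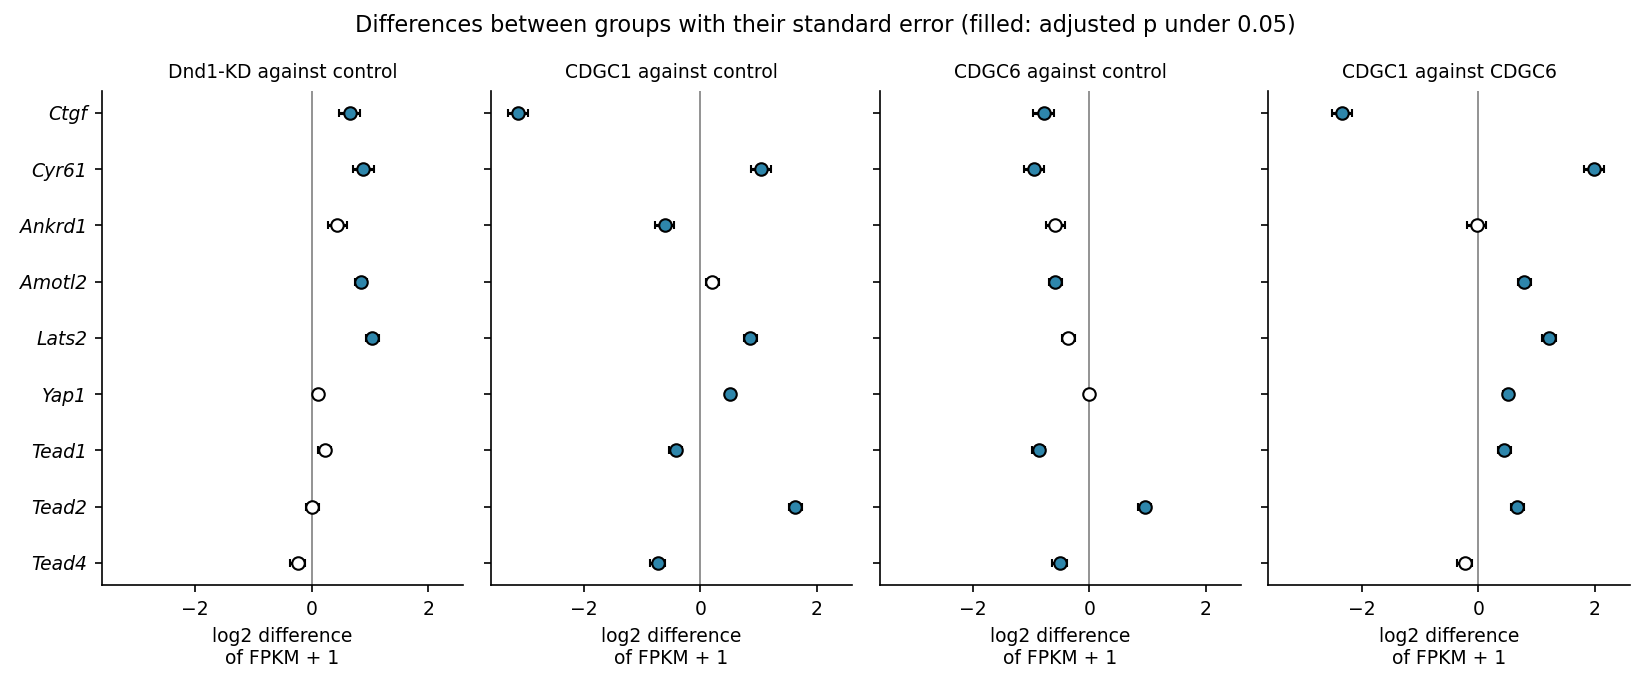
Log2 difference of FPKM + 1 with its standard error for the 9 genes in 4 comparisons, with filled points where the adjusted p is under 0.05. Ctgf in CDGC1 (−3.13) and Tead2 in CDGC1 (1.63) lie farthest from 0 among the differences from the control.

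The 2 derived lines, which share their type of origin, strain, genotype and passage range, were also compared with each other. Their sample titles differ in a further tag whose meaning is not given. Here 6 of the 9 genes were higher in CDGC1 (Cyr61, Amotl2, Yap1, Tead1, Tead2 and Lats2) and Ctgf was lower, where 47.1% of all genes passed (23.0% higher, 24.1% lower). The median of the 9 was 0.51 against −0.02 over all, and 8 did not overlap (72.7% of all genes). Cyr61 averaged 172 FPKM in CDGC1 and 42.9 in CDGC6 (log2 difference 1.99 ± 0.17, adjusted p = 0.000334) and Lats2 was 2.98-fold higher (1.22 ± 0.11, adjusted p = 0.000413). Ctgf was 5.65-fold lower (−2.34 ± 0.17, adjusted p = 0.000186). The other genes of this comparison moved by less: Amotl2 by 0.79, Tead2 by 0.67, Yap1 by 0.51 and Tead1 by 0.45. The Tead1 call was lost with the 2 lines fitted alone (0.0722) and without the second CDGC6 library (0.0775). Ankrd1 (−0.03, adjusted p = 0.909) and Tead4 (−0.23, adjusted p = 0.186) did not pass, and their sign turned with quantile normalization (0.47 and 0.01).

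Other Hippo pathway genes, 28 in all of which 24 could be tested, mostly rose in Dnd1-KD and mostly fell, where they changed, in CDGC6. In Dnd1-KD, 15 of 24 rose and 2 fell (median 0.44), beside 20.7% and 15.5% of all genes. In CDGC1, 8 rose and 5 fell (median 0.04), beside 23.6% and 26.9%. In CDGC6, 1 rose and 8 fell (median −0.28), beside 8.48% and 10.2%. Between the lines, 12 were higher in CDGC1 and 0 were lower by limma (median 0.31), beside 23.0% and 24.1% of all genes. At an unadjusted p under 0.05 the counts were 13 and 0. The 15 that rose in Dnd1-KD became 4 or 6 when the first or second control library was left out and 7 without the second Dnd1-KD library. In CDGC1 the 8 and 5 became 5 and 1, or 4 and 1, when the first or second control library was left out, and those that fell were 3 without either CDGC1 library. The 8 that fell in CDGC6 became 0 or 2 when the first or second control library was left out, 4 without either CDGC6 library and 5 without either Dnd1-KD library. The 12 between the lines became 6 without the second CDGC6 library.

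Among these genes, Wwtr1 encodes TAZ, the relative of YAP. It measured 12.8 and 13.4 FPKM in the control, 24.7 and 28.1 in Dnd1-KD, 34.5 and 25.8 in CDGC1, and 11.2 and 10.1 in CDGC6. Wwtr1 rose in Dnd1-KD (log2 difference 0.96 ± 0.15, adjusted p = 0.00566) and in CDGC1 (1.13 ± 0.15, adjusted p = 0.00123). Lats2 and Cyr61 also rose in both groups. In CDGC1, however, the targets Ctgf (−3.13) and Ankrd1 (−0.61) fell, and Amotl2 did not pass. Lats1, the other kinase gene of the pair, measured 3.51 and 3.35 FPKM in the control, 7.03 and 7.93 in Dnd1-KD, 5.59 and 5.21 in CDGC1, and 4.08 and 3.70 in CDGC6. It rose in Dnd1-KD (0.93 ± 0.10, adjusted p = 0.00210) and in CDGC1 (0.53 ± 0.10, adjusted p = 0.00530). Map4k4, a kinase upstream of LATS, rose by 0.67 in Dnd1-KD and by 0.24 in CDGC1. Limd1, a LIM protein that binds LATS kinases, rose by 0.46 and 0.59 in the same groups. In CDGC6 none of these 4 genes passed.

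Other YAP target genes, 15 of 17 tested, split within each comparison. In Dnd1-KD, 6 rose and 3 fell (median 0.28), beside 20.7% and 15.5% of all genes. In CDGC1, 6 rose and 3 fell (median 0.15), beside 23.6% and 26.9%. In CDGC6, 1 rose and 4 fell (median −0.27), beside 8.48% and 10.2%. Between the lines, 8 were higher in CDGC1 and 2 were lower (median 0.66), beside 23.0% and 24.1%. The 6 that rose in Dnd1-KD became 3 without any 1 of the control or Dnd1-KD libraries, the 3 that fell in CDGC1 became 5 without its first library, and the 4 that fell in CDGC6 became 2 without any 1 of the control or CDGC6 libraries. Crim1, which encodes a membrane protein that binds BMPs, measured 3.15 and 3.73 FPKM in the control and 11.7 and 12.3 in Dnd1-KD (log2 difference 1.55 ± 0.10, adjusted p = 0.000467). Nt5e, the gene of the surface enzyme CD73, fell in Dnd1-KD from 5.72 and 6.61 FPKM to 1.24 and 0.917 (−1.79 ± 0.14, adjusted p = 0.000927). These 2 genes of 1 target list thus moved in opposite directions in the same cells. Fjx1, a secreted regulator related to the Fat pathway, rose in CDGC1 from 5.68 and 5.66 FPKM in the control to 20.6 and 23.0 (1.77 ± 0.13, adjusted p = 0.000124). Gadd45a, a stress gene that is also a p53 target, fell in CDGC1 from 65.9 and 66.1 FPKM to 16.6 and 13.1 (−2.09 ± 0.12, adjusted p = 5.38e-05). Gadd45a was also lower in CDGC6 (−0.97 ± 0.12, adjusted p = 0.00569).

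**Figure D4:**
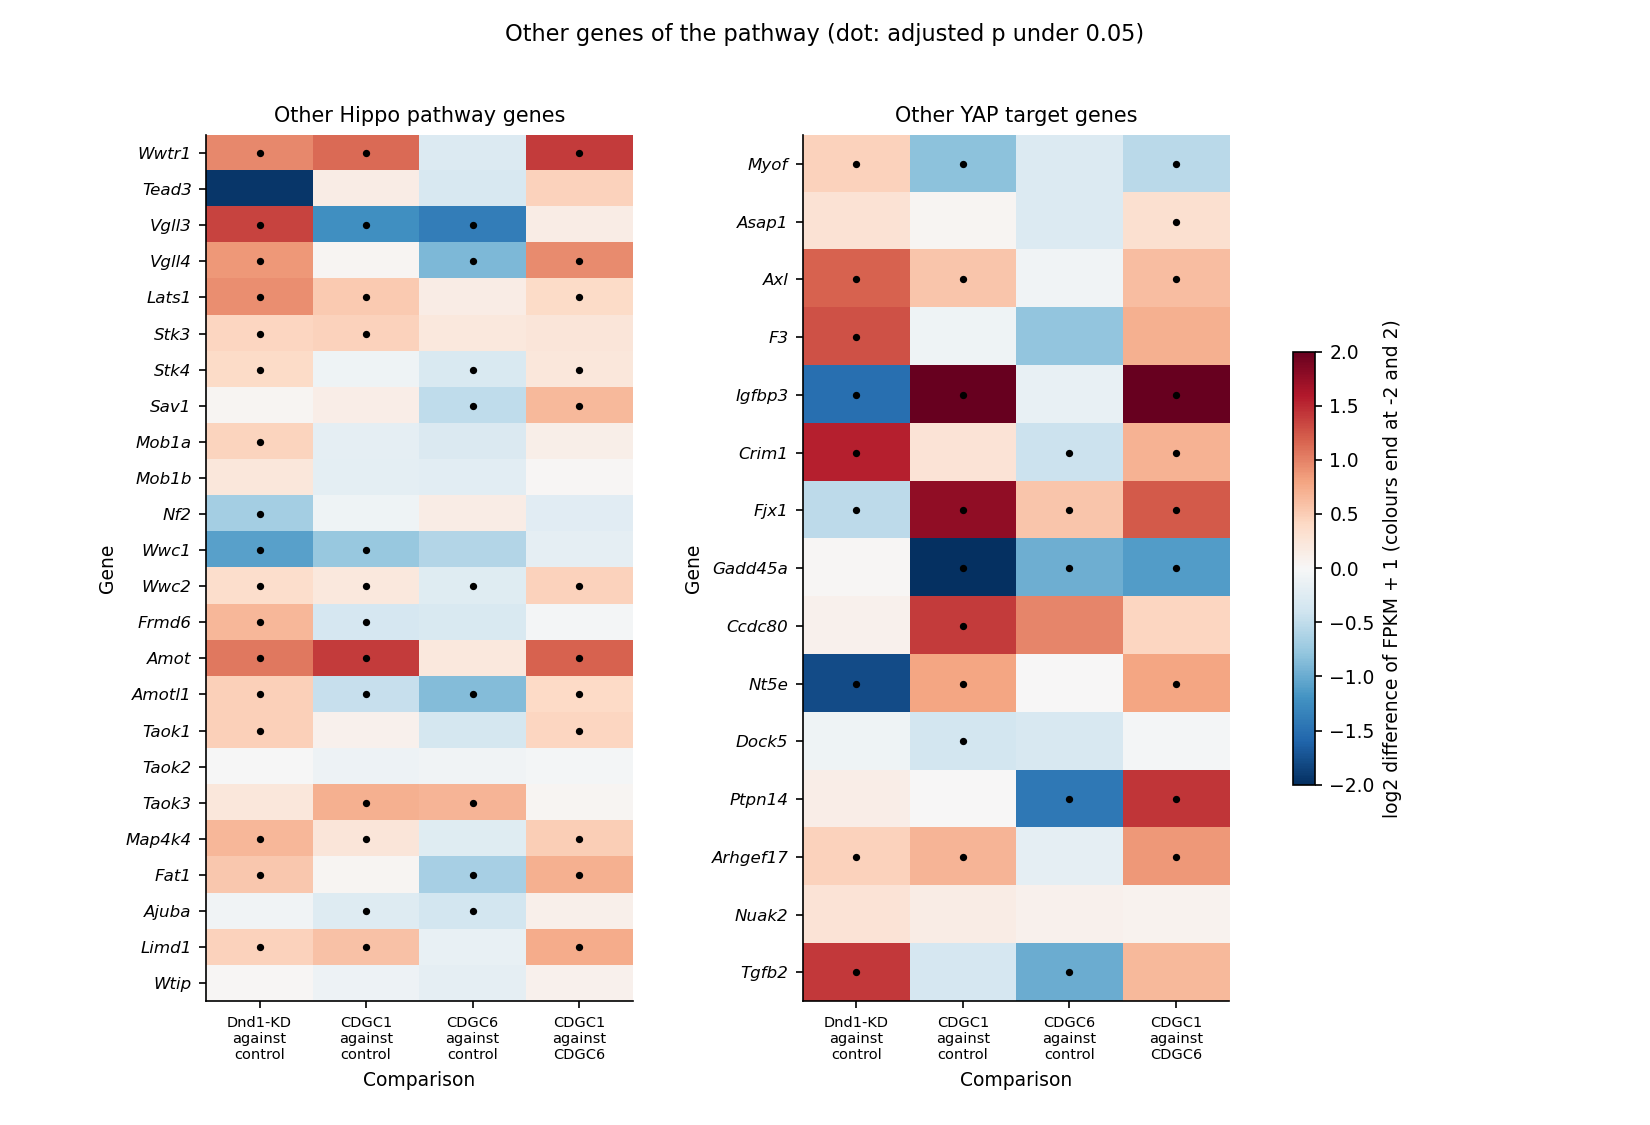
Log2 differences of FPKM + 1 for 24 other Hippo pathway genes and 15 other YAP target genes in 4 comparisons, in colour from −2 to 2, with a dot where the adjusted p is under 0.05. The Dnd1-KD column of the Hippo panel holds 15 genes that rose and 2 that fell, beside 20.7% and 15.5% of all genes. The dark Tead3 cell rests on the library listed at 0 and did not pass.

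Markers of other cell types also differed between the groups. Fibroblast or feeder markers (12 genes) summed to 10.7 to 11.3 FPKM in the control, 15.6 to 17.1 in Dnd1-KD, 44.8 to 45.7 in CDGC1 and 34.6 to 46.8 in CDGC6, with Lum and Fap under 0.1 FPKM in every library. Of the 8 that could be tested, 6 rose and 1 fell in CDGC1 (23.6% and 26.9% of all genes). By limma, 6 rose and 0 fell in CDGC6 (8.48% and 10.2%), and 2 rose and 0 fell in Dnd1-KD (20.7% and 15.5%). At an unadjusted p under 0.05 these last counts were 6 and 0 in CDGC6 and 3 and 1 in Dnd1-KD. The 6 in CDGC6 became 2 without either control library and 3 without the second CDGC6 library. The 2 in Dnd1-KD became 0 without either control library or without the second Dnd1-KD library, and 1 without the first. The 1 that fell in CDGC1, Twist1, was lost without the first CDGC1 library, either CDGC6 library or either control library.

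Trophectoderm markers (11 genes) summed to 519 to 589 FPKM in the control, 1044 to 1101 in Dnd1-KD, 292 to 325 in CDGC1 and 172 to 206 in CDGC6, with Elf5 under 0.1 FPKM in every library. Most of each control and Dnd1-KD sum came from the keratin genes Krt8 and Krt18, which other epithelia also express. Krt8 measured 255 and 292 FPKM in the control and 509.7 and 504 in Dnd1-KD, and Krt18 measured 224 and 258 FPKM in the control and 544 and 500.4 in Dnd1-KD. Krt8 was summed with Krt5 and Krt78 as 1 gene, so its values are those of all of them. The members did not move together. Of 9 tested in Dnd1-KD, 4 rose (Krt8, Krt18, Gata3 and Hand1) and 2 fell, beside 20.7% and 15.5% of all genes. The 2 that fell were Cdx2, a trophectoderm factor, and Tfap2c. Cdx2 went from 3.80 and 3.79 to 1.54 and 1.16 FPKM, and Tfap2c from 21.1 and 20.6 to 15.0 and 10.8 FPKM. The 2 became 1 without either control library. In CDGC1, 1 rose and 5 fell, beside 23.6% and 26.9% of all genes. In CDGC6, 1 rose and 6 fell, beside 8.48% and 10.2%. The 1 that rose in both lines was Eomes, which marks trophoblast stem cells and mesendoderm. Eomes measured 3.08 and 3.53 FPKM in the control, 68.4 and 80.0 in CDGC1, and 15.4 and 8.47 in CDGC6, and its CDGC6 call was lost without either control library.

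Endoderm markers (11 genes) summed to 48.4 to 50.3 FPKM in the control, 91.4 to 105.7 in Dnd1-KD, 67.5 to 100.7 in CDGC1 and 50.4 to 57.9 in CDGC6, with Afp under 0.1. Of 7 tested, 5 rose and 0 fell in Dnd1-KD by limma, beside 20.7% and 15.5% of all genes. The counts were the same at an unadjusted p under 0.05. The 5 became 2 without either control library or without the second Dnd1-KD library, and 1 without the first. In CDGC1, 2 rose and 3 fell, beside 23.6% and 26.9% of all genes. The number that rose there depended on the first CDGC1 library. In CDGC6 0 rose and 1 fell by limma, beside 8.48% and 10.2% of all genes. At an unadjusted p under 0.05, 1 rose and 2 fell. The 1 that fell by limma was lost without either control library.

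Pluripotent stem cell markers (8 genes) summed to 1953 to 1976 FPKM in the control, 966 to 1160 in Dnd1-KD, 1852 to 1946 in CDGC1 and 2325 to 2671 in CDGC6, with Pou5f1 (Oct4) the largest term in each library. In Dnd1-KD 0 rose and 7 fell by limma, beside 20.7% and 15.5% of all genes. The counts were the same at an unadjusted p under 0.05. In CDGC1, where the sum lay near that of the control, 2 rose and 4 fell, beside 23.6% and 26.9% of all genes. Dppa4 measured 109.9 and 112 FPKM in the control and 0.317 and 0.657 in CDGC1. Utf1 (log2 difference −1.43) and Sox2 (−1.06) also fell in CDGC1. The 2 that rose there became 1 without either CDGC1 library or the first control library, and 0 without the second control library. In CDGC6 1 rose and 0 fell by limma, beside 8.48% and 10.2% of all genes. At an unadjusted p under 0.05, 3 rose and 0 fell. The 1 that rose by limma was lost without any 1 of the control or CDGC6 libraries. The part of these cell types in the results was not tested.

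Genes whose pattern was most like that of Ctgf or Yap1 were ranked by Pearson r of log2(FPKM + 1) over the 8 libraries, among 7994 genes of at least 5 FPKM in a library. For Ctgf they were Fut8 (0.996), Fsd1l (0.995), Ostf1 (0.995), Wdr62 (0.994) and Pias4 (0.994). For Yap1 they were Fv1 (0.990), Chsy1 (0.985), Klhl9 (0.984), Rims2 (0.983) and Them4 (0.983). Ankrd1 and Tead4 stayed under 5 FPKM in every library and so were not ranked. None of the rest of the 9 genes was in either list. The 8 points come from 4 groups of 2, so r mostly compares group means.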

How the data were processed

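RNA was sequenced from 8 libraries with a kit that keeps no strand. The deposited FPKM values were made by the authors with TopHat2, Bowtie, Cufflinks and Cuffdiff on mm10, named in the submitters' processing notes without versions or settings. Per the file headers each entry holds a FPKM and its interval. Of the 72 entries of the 9 genes, 47 carry names of transcripts assembled by the program.

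Symbols joined in any table were summed as 1 gene. Genes with at least 1 FPKM in at least 2 libraries went into limma 3.58.1 (R 4.3.3; log2(FPKM + 1), 1 mean per group over all 8 libraries, empirical Bayes with trend, two-sided, Benjamini-Hochberg). The code was tested on simulated data. Raw counts were not used here, so no count model was run. Alternatives were pseudocounts of 0.1 and 5, no filter and 5 FPKM, quantile and median-ratio scaling, the compared groups alone, a replicate block, no trend, the highest entry per gene, and each library left out. All 9 genes are named; from each other list the text names up to 4 genes with the smallest p in any of 4 comparisons. Exceptions, chosen after their values were seen, are Tead3, Hprt, Cd37 and the cell type markers named. The 9 genes and the lists were chosen with earlier results of these data known. Sequences are from RefSeq (GRCm38.p6) and GENCODE vM21.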

Additional observations from a re-analysis of the deposited data

Results flagged for a closer look

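The 2 derived lines differed from the control by unequal amounts, and the difference between the lines was tested directly with limma, in log2(FPKM + 1) as CDGC1 minus CDGC6. Cyr61 (1.99) rose in CDGC1 and fell in CDGC6, so the lines moved in opposite directions from the same control libraries. Ctgf (−2.34) was lower in both lines and far lower in CDGC1, and Tead2 (0.67) was higher in both and more so in CDGC1. Tead1 (0.45) was lower in both and less so in CDGC1. For Lats2 (1.22) and Yap1 (0.51) the difference from the control passed in CDGC1 and not in CDGC6, and for Amotl2 (0.79) it passed in CDGC6 and not in CDGC1. With quantile normalization Lats2 passed as lower in CDGC6 too. Both contrasts share the control libraries, which cancel in the difference.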

How the results depend on the processing

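Of 639 values recomputed under another setting, 578 kept their direction and their side of the threshold, 39 lost the call, 14 gained one and 8 turned sign. The 8 were Tead2 in Dnd1-KD (−0.042 with median-ratio scaling, and −0.11 to 0.13 with 1 library left out, lowest without the first Dnd1-KD library), Yap1 in CDGC6 (−0.019 to 0.022, below 0 without the first CDGC6 or the second control library), Tead4 between the lines (0.010 with quantile normalization) and Ankrd1 between the lines (0.47 with quantile normalization, where it passed at adjusted p = 0.0470, and −0.23 to 0.18 with 1 library left out, above 0 without the second CDGC1 or the first CDGC6 library). The cause was not tested. The number of the 9 genes that passed in Dnd1-KD was 7 when only the 2 compared groups were fitted. With 1 library left out, 2 to 6 passed in Dnd1-KD, 6 to 8 in CDGC1, 1 to 7 in CDGC6 and 7 to 7 between the lines. Where a group had 1 library left, it was assumed to vary like the others. Over all genes, the 4309 calls in Dnd1-KD became 1361 and 1627 without the first or second control library and 1743 without the second Dnd1-KD library. The 2222 in CDGC6 became 403 and 488 without the control libraries and 1396 and 1272 without the first or second CDGC6 library. Of the Dnd1-KD calls 57.2% were higher, against 50.1% with quantile normalization and 48.9% with median-ratio scaling. Deviations of same-numbered libraries correlated at −0.049 to 0.121, highest between the control and Dnd1-KD. In both of these groups the first library was deeper and listed more entries (32913 and 32513) than the second (29452 and 28711). In CDGC1 and CDGC6 the second library listed more entries (28729 and 29818) than the first (27013 and 29539). Whether same-numbered libraries were prepared together was not tested. With the replicate block 4, 8, 5 and 7 of the 9 genes passed in Dnd1-KD, CDGC1, CDGC6 and between the lines, and Tead4 in CDGC6 lost its call (adjusted p = 0.0540). Ankrd1, Tead4 and Lats2, at a few FPKM, are the members that depth limits most.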

Other observations

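Actin and adhesion genes driven by SRF, a factor that shares targets such as Ctgf and Cyr61 with YAP, also differed between groups. Of 13 tested, 9 rose and 1 fell in Dnd1-KD (median log2 difference 0.60), beside 20.7% and 15.5% of all genes. In CDGC1, 7 rose and 1 fell (0.59), beside 23.6% and 26.9%. In CDGC6, 1 rose and 1 fell (−0.26), beside 8.48% and 10.2%, and at an unadjusted p under 0.05 the CDGC6 counts were 2 and 7. The 9 became 3 or 5 without the first or second control library and 5 or 4 without the first or second Dnd1-KD library, and in CDGC6 5 fell without either CDGC1 library, 2 without either Dnd1-KD library and 0 without any 1 of the control or CDGC6 libraries. The 1 that fell in CDGC1 became 2 without the first CDGC1 library and 0 without the second control library. Between the lines 9 were higher in CDGC1 and 0 lower by limma (median 0.78), beside 23.0% and 24.1% of all genes, the same counts as at an unadjusted p under 0.05. Zyx, a focal adhesion gene, measured 35.0 and 38.1 FPKM in the control, 56.0 and 56.0 in Dnd1-KD, 90.6 and 90.1 in CDGC1, and 32.2 and 28.5 in CDGC6. Vcl, the gene of vinculin, measured 53.2 and 51.1 FPKM in the control, 71.4 and 72.1 in Dnd1-KD, 119 and 95.5 in CDGC1, and 50.5 and 43.8 in CDGC6. Both rose in Dnd1-KD and CDGC1 and did not pass in CDGC6. Acta2, smooth muscle actin, rose in Dnd1-KD from 10.3 and 12.0 FPKM to 64.9 and 62.7 (log2 difference 2.42 ± 0.27, adjusted p = 0.00237), whereas Myl9, a myosin light chain gene, fell there from 16.8 and 17.9 FPKM to 9.32 and 9.47 (−0.82 ± 0.08, adjusted p = 0.00205). In CDGC1 Myl9 was at 63.2 and 57.4 FPKM.

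Immediate early genes, which respond to serum within minutes, rose in 5 and fell in 2 of 13 cases in Dnd1-KD, beside 20.7% and 15.5% of all genes, and rose in 7 and fell in 1 in CDGC1, beside 23.6% and 26.9%. The 2 that fell in Dnd1-KD, a share near that of all genes, became 0 without the second control library and 1 without the first control or either Dnd1-KD library. In CDGC6 0 rose and 1 fell by limma, beside 8.48% and 10.2% of all genes. The counts were the same at an unadjusted p under 0.05. The 1 was lost without either control library, either Dnd1-KD library or the second CDGC6 library. The 7 in CDGC1 became 4 without the first control library. Jun, part of the AP-1 factor that often works beside TEAD, measured 10.9 and 12.9 FPKM in the control and 36.5 and 40.4 in Dnd1-KD (log2 difference 1.62 ± 0.15, adjusted p = 0.00164). Fosl1, another AP-1 gene, was listed at 0 in all control and CDGC6 libraries. It measured 1.25 and 1.69 FPKM in Dnd1-KD and 1.31 and 1.47 in CDGC1. These values are low, and, as for Tead3, a listed 0 can be a failed estimate. Zfp36, whose product speeds decay of AU-rich mRNAs, was at 12.3 and 12.3 FPKM in the control and 1.01 and 1.18 in CDGC1 (−2.67 ± 0.25, adjusted p = 0.000329). Egr3 shared an entry with its neighbour Bin3 in at least 1 library, so its value is that of both genes.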
